A study of Mus musculus with 9 samples.

Results

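Myc and 5 genes linked to amino acid uptake and use were followed in CD4+ T cells: Slc7a5, Slc3a2, Slc1a5, Slc7a1 and Odc1. They were taken by gene symbol, and these 6 genes are among 39253 in the deposited table. All 6 had enough counts to be tested in every comparison below.

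The cells came from mice with experimental autoimmune encephalomyelitis (EAE), in which an immune attack on the brain and spinal cord is induced as a model of multiple sclerosis. They were collected on day 9, and their RNA was sequenced as single-end reads. The libraries carry a batch number in the labels. Knockout (KO) stands for samples labelled as lacking estrogen receptor alpha (ERα), and WT for samples labelled wildtype. Batch 2 holds KO replicates 4 and 5 and WT replicates 3 and 4, and batch 1 holds KO replicates 1, 2 and 3 and WT replicates 1 and 2. All 9 samples, KO and WT alike, came from EAE mice at this single time. The series title is about ERα in dendritic cells, while the cells measured here are T cells. The labels do not state in which cells ERα is missing, the allele, the strain, the age or sex of the mice, the tissue, or which samples come from separate animals, so a p-value reflects only how far these samples vary, which may be technical.

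A T cell that is stimulated through its receptor grows before it divides, and needs a large supply of amino acids to do so. Myc is a transcription factor that pairs with Max and drives the genes of this growth program, including amino acid transporters, the enzymes of glutamine and polyamine metabolism and the machinery that makes ribosomes. Slc7a5 and Slc3a2 encode the light and heavy chain of a heterodimer that exchanges large neutral amino acids such as leucine, and intracellular leucine is a signal for mTORC1. Uptake through this exchanger is also known to sustain Myc protein in activated T cells.

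Promoter windows are shown for Odc1, Slc3a2 and Slc7a1, the 3 of the 6 genes for which RefSeq sequences of build GRCm38.p6 were found. For Myc, Slc7a5 and Slc1a5 no window was found. Each window covers the 250 bases before the start site. Capitals mark matches to a GC box, GGGCGG, on either strand. The Odc1 window is chr12:17544623-17544872 on the plus strand, the Slc3a2 window is chr19:8713898-8714147 on the minus strand, and the Slc7a1 window is chr5:148399905-148400154 on the minus strand.
Odc1: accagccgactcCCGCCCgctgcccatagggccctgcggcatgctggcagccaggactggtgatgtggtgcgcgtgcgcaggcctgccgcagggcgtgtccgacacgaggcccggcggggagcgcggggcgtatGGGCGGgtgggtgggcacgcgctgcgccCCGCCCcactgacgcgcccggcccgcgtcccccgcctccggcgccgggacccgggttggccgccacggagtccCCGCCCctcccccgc
Slc3a2: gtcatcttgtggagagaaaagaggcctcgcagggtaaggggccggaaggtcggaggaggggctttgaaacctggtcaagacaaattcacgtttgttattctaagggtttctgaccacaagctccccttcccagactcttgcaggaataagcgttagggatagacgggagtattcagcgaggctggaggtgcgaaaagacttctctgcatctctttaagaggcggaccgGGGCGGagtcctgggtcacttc
Slc7a1: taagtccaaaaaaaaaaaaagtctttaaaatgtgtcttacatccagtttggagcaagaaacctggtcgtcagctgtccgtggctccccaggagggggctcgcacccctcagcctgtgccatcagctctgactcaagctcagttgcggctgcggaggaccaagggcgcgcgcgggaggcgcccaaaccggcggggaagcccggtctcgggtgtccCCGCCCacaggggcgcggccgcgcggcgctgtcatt
The Odc1 window held 4 GC boxes and was 80% G and C. The Slc3a2 and Slc7a1 windows held 1 each, at 53.6% and 62.4% G and C. A GC box lies in 32.7% of 32851 such windows of mouse genes. The same windows were searched on both strands for CACGTG, the E-box that Myc and Max bind, for TGATGNAAN, the element of the amino acid stress response, and for TGACGTCA, the cyclic AMP element. None of these letters occur in the 3 windows shown, against 6.02%, 3.44% and 1.55% of all windows. A second Slc7a1 start site, with its window at chr5:148392816-148393065, held a TATAAA match, which 12.4% of all windows hold, and no GC box. A match is a string of letters and not a measured binding site, and the search says nothing of sites outside these windows.

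Batch 2 libraries were deeper than batch 1 libraries, at 62863222 and 54625373 counts in KO and 69844721 and 45013017 in WT, against 5069169 to 8713129 in batch 1 KO and 4926347 and 11296593 in batch 1 WT. Esr1, the gene of ERα, had 9 and 14 counts in batch 2 KO libraries, against 101 and 76 in batch 2 WT libraries (log2 fold change -2.96 ± 0.70 (SE), edgeR adjusted p = 0.618). In batch 1 it stood at 9.58, 6.31 and 13.0 CPM (counts scaled to the library total) in KO and 4.87 and 16.2 CPM in WT. Batch 1 libraries also had 0.0574 to 0.255% of their counts in 1508 sensory receptor genes, against 0.00258 to 0.0037% in batch 2, so Esr1 does not check the batch 1 labels. Cd4 stood at 925 to 1321 CPM over the 9 libraries and Cd3e at 1071 to 1522 CPM, while Cd8a was at most 5.13 CPM. In bulk RNA, fewer cells of a type and less RNA per cell cannot be told apart. Xist, transcribed from the inactive X chromosome, was at most 0.289 CPM in batch 2, and Ddx3y, a Y-linked gene, was at 93.6 to 107 CPM there. KO replicate 3 of batch 1 had 30.4 CPM of Xist and 55.4 CPM of Ddx3y, while the other batch 1 libraries had 1745 to 2680 CPM of Xist and 0 counts of Ddx3y.

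Myc mRNA did not pass between genotypes in any comparison. In batch 2, Myc was at 147 and 143 CPM in KO libraries, against 137 and 117 CPM in WT libraries. In batch 1, Myc was at 144, 146 and 264 CPM in KO libraries, against 162 and 199 CPM in WT libraries. Both batch 2 KO libraries were above both WT libraries, and KO replicate 3 was above every other library of the study. The group averages were 145 ± 2.54 CPM (SD, n = 2) in KO and 127 ± 14.1 CPM (SD, n = 2) in WT of batch 2. They were 185 ± 69.0 CPM (SD, n = 3) in KO and 180 ± 26.4 CPM (SD, n = 2) in WT of batch 1. Ranked by their averages, batch 1 KO and batch 1 WT came highest and overlapped, followed by batch 2 KO and batch 2 WT, which overlapped neither each other nor batch 1 WT. Batch 2 KO, at 143 to 147 CPM, did overlap batch 1 KO, at 144 to 264 CPM. Fold changes below are on the log2 scale after TMM scaling, which evens out differences in library composition, so they need not have the sign of the averages in CPM. The log2 fold change of Myc was 0.20 ± 0.13 (SE) in batch 2 (edgeR adjusted p = 0.754) and -0.15 ± 0.36 in batch 1 (edgeR adjusted p = 1.00). Over both batches it was 0.07 ± 0.17 (edgeR adjusted p = 1.00).

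**Figure D1:**
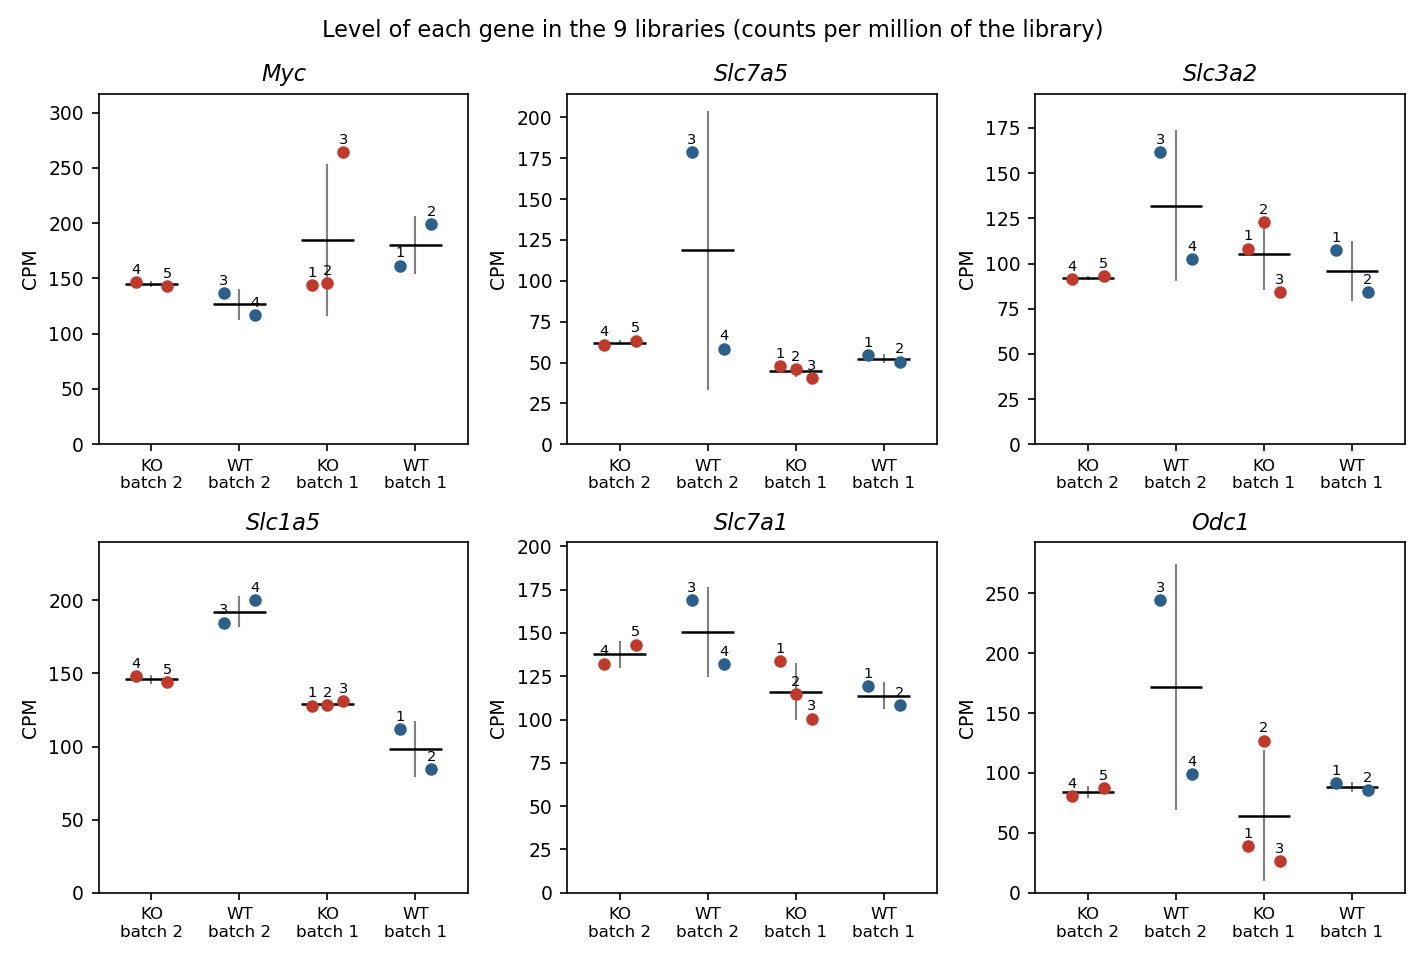
Level of each of the 6 genes in CPM (counts scaled to the library total, linear axis from 0) for KO (red) and WT (blue) libraries of batch 2 and batch 1. Points are libraries numbered by replicate, horizontal bars are group means and vertical lines are 1 SD (n = 3 for KO in batch 1, n = 2 otherwise); WT replicate 3 stands above all others for Slc7a5 at 179 CPM, Slc3a2 at 162 CPM and Odc1 at 244 CPM, and KO replicate 3 for Myc at 264 CPM.

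Slc7a5, the transporter chain that carries large neutral amino acids, had its highest level in WT replicate 3. Slc7a5 in batch 2 was at 61.0 and 63.4 CPM in KO libraries, against 179 and 58.4 CPM in WT libraries. The batch 1 levels were 47.6, 46.1 and 40.4 CPM in KO libraries, against 54.4 and 50.5 CPM in WT libraries. The batch 2 groups overlapped, because WT replicate 4 was below both KO libraries, while in batch 1 every KO library was below both WT libraries. The averages were 62.2 ± 1.65 CPM in KO and 119 ± 85.2 CPM in WT of batch 2 (SD, n = 2 each). In batch 1 they were 44.7 ± 3.79 CPM in KO (SD, n = 3) and 52.4 ± 2.69 CPM in WT (SD, n = 2). From highest to lowest average the order was batch 2 WT, batch 2 KO, batch 1 WT and batch 1 KO, and only the first pair overlapped. The log2 fold change was -0.95 ± 0.64 (SE) in batch 2 (edgeR adjusted p = 0.771), -0.37 ± 0.36 in batch 1 (edgeR adjusted p = 1.00) and -0.59 ± 0.30 over both batches (edgeR adjusted p = 1.00).

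Slc3a2 encodes CD98, the heavy chain that carries Slc7a5 and related light chains to the cell surface. Slc3a2 was at 91.4 and 93.0 CPM in KO libraries of batch 2, against 162 and 102 CPM in WT libraries. Levels of 108, 123 and 84.0 CPM were found in KO libraries of batch 1, against 108 and 84.0 CPM in WT libraries. Both KO libraries were below both WT libraries in batch 2, and in batch 1 the groups overlapped. The averages were 92.2 ± 1.10 CPM in KO and 132 ± 42.0 CPM in WT of batch 2 (SD, n = 2 each). They were 105 ± 19.7 CPM in KO (SD, n = 3) and 95.8 ± 16.6 CPM in WT of batch 1 (SD, n = 2). From highest to lowest the averages ran batch 2 WT, batch 1 KO, batch 1 WT, batch 2 KO, with each group overlapping the next. The log2 fold change was -0.52 ± 0.25 (SE) in batch 2 (edgeR adjusted p = 0.692), -0.004 ± 0.38 in batch 1 (edgeR adjusted p = 1.00) and -0.20 ± 0.20 over both batches (edgeR adjusted p = 1.00).

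Slc1a5 encodes ASCT2, a sodium-dependent exchanger of neutral amino acids that brings in glutamine, and it had opposite directions in the batches. Slc1a5 in batch 2 was at 148 and 144 CPM in KO libraries, against 185 and 199.9 CPM in WT libraries. Batch 1 had 128, 128 and 131 CPM in KO libraries, against 112 and 84.6 CPM in WT libraries. All KO libraries lay below all WT libraries in batch 2 and above them in batch 1, and none of the 4 groups overlapped. The averages were 146 ± 2.93 CPM in KO and 192 ± 10.7 CPM in WT of batch 2 (SD, n = 2 each). They were 129 ± 1.68 CPM in KO (SD, n = 3) and 98.2 ± 19.1 CPM in WT of batch 1 (SD, n = 2). The log2 fold change was -0.39 ± 0.093 (SE) in batch 2, with an unadjusted p of 0.00697 (edgeR adjusted p = 0.618), and 0.23 ± 0.37 in batch 1 (edgeR adjusted p = 1.00). Over both batches it was -0.003 ± 0.16 (edgeR adjusted p = 1.00). The difference between the batches had a log2 value of -0.75 ± 0.23, with an unadjusted p of 0.00768 (edgeR adjusted p = 0.494). DESeq2, the other count model run, placed Slc1a5 past the threshold in batch 2 (DESeq2 adjusted p = 0.0365) and for the difference between batches (DESeq2 adjusted p = 0.0495). Adjusted p-values over all alternatives ran from 0.0365 to 1.00 in batch 2 and from 0.0495 to 1.00 for the difference between batches. The sign of the batch 1 log2 fold change, which is after TMM scaling, rested on WT replicate 2, without which it was -0.13. In CPM all batch 1 KO libraries were above WT replicate 1 as well, which was at 112 CPM.

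Slc7a1, which imports the cationic amino acids arginine, lysine and ornithine, had a coefficient of variation of 10.8% over the batch 1 libraries, as did Slc7a5, against 16.7 to 55.5% for the other 4 genes. Slc7a1 was at 132 and 143 CPM in KO libraries of batch 2, against 169 and 132 CPM in WT libraries. The levels in batch 1 were 134, 115 and 100.4 CPM in KO libraries, against 119 and 108 CPM in WT libraries. The groups overlapped in both batches. The averages were 138 ± 7.83 CPM in KO and 150.3 ± 26.05 CPM in WT of batch 2 (SD, n = 2 each), and 116 ± 16.6 CPM in KO (SD, n = 3) and 114 ± 7.73 CPM in WT of batch 1 (SD, n = 2). Neighbours in the order batch 2 WT, batch 2 KO, batch 1 KO and batch 1 WT overlapped throughout. The log2 fold change was -0.13 ± 0.17 (SE) in batch 2 (edgeR adjusted p = 0.892), -0.11 ± 0.37 in batch 1 (edgeR adjusted p = 1.00) and -0.07 ± 0.13 over both batches (edgeR adjusted p = 1.00).

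Odc1 encodes ornithine decarboxylase, which turns ornithine into putrescine at the start of polyamine synthesis and is a textbook target of Myc. It had the widest spread of the 6 genes in batch 1. Odc1 was at 80.9 and 87.4 CPM in KO libraries of batch 2, against 244 and 98.9 CPM in WT libraries. Among batch 1 libraries it was at 39.0, 127 and 26.6 CPM in KO libraries, against 91.5 and 85.5 CPM in WT libraries. Both KO libraries were below both WT libraries in batch 2, and in batch 1 KO replicate 2 was the highest library and KO replicates 1 and 3 the lowest. The highest batch 1 library was 4.77 times the lowest, against at most 1.84 times for the other 5 genes in that batch. The averages were 84.1 ± 4.61 CPM in KO and 171 ± 103 CPM in WT of batch 2 (SD, n = 2 each), and 64.2 ± 54.8 CPM in KO (SD, n = 3) and 88.5 ± 4.29 CPM in WT of batch 1 (SD, n = 2). Batch 2 WT was highest and did not overlap batch 1 WT, which came next, and batch 2 KO and batch 1 KO followed, each overlapping the group before it. The lowest batch 2 WT library, at 98.9 CPM, was below the highest batch 1 KO library, at 127 CPM, so these groups overlapped as well. The log2 fold change was -1.04 ± 0.51 (SE) in batch 2 (edgeR adjusted p = 0.713), -0.53 ± 0.71 in batch 1 (edgeR adjusted p = 1.00) and -0.74 ± 0.49 over both batches (edgeR adjusted p = 1.00).

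Of the 6 genes, 0 passed between genotypes with edgeR in any comparison, whose threshold was an adjusted p of 0.05. Of all genes tested, 0% passed in batch 2 (15910 genes), 0.126% in batch 1 (24600 genes) and 0.00451% over both batches (22197 genes), as did 0.00451% for the difference between batches. At an unadjusted p under 0.05 there was 1 of the 6 in batch 2, where 7.77% of all genes were, and 1 for the difference between batches, where 8.36% were, Slc1a5 in both cases. There were 0 in batch 1 and 0 over both batches, where 1.97% and 2.36% of all genes were under it. DESeq2 called 1 of the 6 in batch 2 and 1 for the difference between batches, again Slc1a5, where it called 2.11% and 0.758% of all genes. It called 0 of the 6 in batch 1 and over both batches, where it called 0.13% and 0.118% of all genes. With limma-voom 0 of the 6 passed, and of all genes 0.154% passed in batch 1 and 0% in the other comparisons. All KO libraries were below all WT libraries for 3 genes in batch 2 (Slc3a2, Slc1a5 and Odc1), where 20.5% of all genes were so ordered, and for 1 gene in batch 1 (Slc7a5), where 5.19% were. They were above them for Myc in batch 2 and for Slc1a5 in batch 1, against 19.6% and 10.9% of all genes. Of the 6 log2 fold changes, 5 were negative in batch 2, 5 in batch 1 and 5 over both batches, where 52.2%, 46.2% and 48.6% of all genes were negative. The exception was Myc in batch 2 and over both batches, and Slc1a5 in batch 1. The negative values include -0.004 ± 0.38 for Slc3a2 in batch 1 and -0.003 ± 0.16 for Slc1a5 over both batches. In CPM, the batch 1 averages of Myc, Slc3a2, Slc1a5 and Slc7a1 were higher in KO, and those of Slc7a5 and Odc1 were lower. The medians of the 6 log2 fold changes were -0.46, -0.13 and -0.13, against medians over all tested genes of -0.02, 0.04 and 0.01. The batch 2 median of the 6 was -0.0037 without WT replicate 3, and the batch 1 median was 0.0044 without WT replicate 1.

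**Figure D2:**
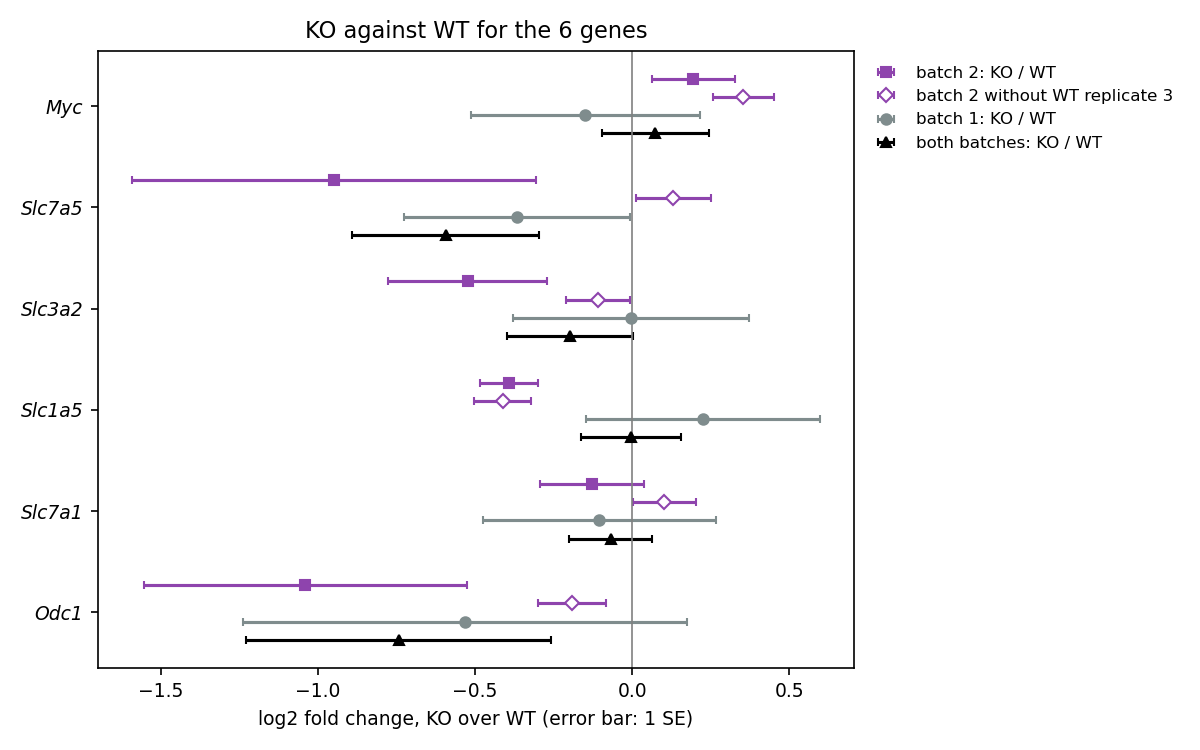
Log2 fold change of KO over WT (horizontal axis) for the 6 genes in batch 2 (filled squares), in batch 2 without WT replicate 3 (open diamonds), in batch 1 (circles) and over both batches (triangles); bars are 1 SE from edgeR. Without WT replicate 3 the batch 2 value of Slc7a5 is 0.13 in place of -0.95 and that of Odc1 is -0.19 in place of -1.04, while that of Slc1a5 is -0.41 in place of -0.39.

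The batch 2 values of Slc7a5, Slc3a2 and Odc1 rested on WT replicate 3. Its level of Slc7a5 was 3.03 times that in WT replicate 4, and 1.92% of the tested genes had a larger ratio between these libraries. For Odc1 the ratio was 2.45 (2.50% of genes larger), for Slc3a2 1.57 (6.16%), for Slc7a1 1.28 (13.9%), for Myc 1.17 (21.1%) and for Slc1a5 0.925 (56.7%). These ratios are on the scale of CPM with 1 added. Without WT replicate 3, the batch 2 log2 fold changes were 0.13 for Slc7a5, -0.11 for Slc3a2, -0.19 for Odc1, 0.10 for Slc7a1, 0.35 for Myc and -0.41 for Slc1a5, and 0 of the 6 passed with edgeR. Without WT replicate 4, Slc7a5 fell by 1.56 (edgeR adjusted p = 2.85e-05), Slc3a2 fell by 0.85 (edgeR adjusted p = 0.00101) and Odc1 fell by 1.58 on the log2 scale (edgeR adjusted p = 2.53e-05), so 3 of the 6 passed there. Of all genes tested, 1.62% passed without WT replicate 3 and 5.21% without WT replicate 4, against 0% with all 4 libraries. In both fits the lone WT library was assumed to vary like the KO libraries. Over all alternatives the adjusted p-values of these 3 genes in batch 2 reached 1.00.

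WT replicate 3 also stood apart in markers of other cells. Alas2, an enzyme of heme synthesis in red cell precursors, was at 23.2 and 19.9 CPM in batch 2 KO libraries, against 434 CPM in WT replicate 3 and 17.0 CPM in WT replicate 4. Hbb-bs, a globin gene, was at 8.77 and 7.78 CPM in KO, against 110 CPM in WT replicate 3 and 6.64 CPM in WT replicate 4. Both red cell genes were thus high in the library with the high Slc7a5, Slc3a2 and Odc1 levels, and in no other batch 2 library. The 6 markers of erythroid cells and platelets summed to 47.1 and 41.6 CPM in batch 2 KO, against 881 CPM in WT replicate 3 and 33.5 CPM in WT replicate 4, and to 3.25 to 20.5 CPM in batch 1. The platelet marker Pf4 was at 0 and 0.128 CPM in batch 2 KO, against 0.544 CPM in WT replicate 3 and 0.156 CPM in WT replicate 4, and Ppbp was at 0.0477 and 0.256 CPM in KO, against 1.86 CPM in WT replicate 3 and 0.111 CPM in WT replicate 4. Tfrc, the transferrin receptor that both dividing T cells and red cell precursors carry, was at 31.5 and 31.3 CPM in batch 2 KO, against 280.2 CPM in WT replicate 3 and 27.8 CPM in WT replicate 4. Mki67, a marker of dividing cells, was also highest in WT replicate 3, but both WT libraries were above both KO libraries, at 441 and 708 CPM in batch 2 KO, against 2155 CPM in WT replicate 3 and 1036 CPM in WT replicate 4. The neutrophil marker S100a8 was at 1.99 and 2.54 CPM in batch 2 KO, against 56.1 CPM in WT replicate 3 and 7.46 CPM in WT replicate 4. The part of these cells and of cell division in the levels of Slc7a5, Slc3a2 and Odc1 was not tested.

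The closest profiles to that of Slc7a5 had the same library on top. Likeness was measured as the root mean square distance of log2(CPM + 1), centred on the mean of each batch, over the 9 libraries and 8701 genes. The 5 nearest genes were Ranbp10 at a distance of 0.047, Cpeb4 at 0.078, Epb41 at 0.086, Nadk2 at 0.10 and Trak2 at 0.11, against a median of 0.498 over all genes. Epb41, which encodes a protein of the red cell membrane skeleton, was at 958 CPM in WT replicate 3, against 287 to 290.1 CPM in the other batch 2 libraries and 223 to 299 CPM in batch 1. Ranbp10 was at 336 CPM in that library, against 105 to 121 CPM in the other batch 2 libraries and 106 to 135 CPM in batch 1. Cpeb4 was at 432 CPM, against 161 to 165 CPM and 132 to 190.5 CPM. Trak2 was at 343 CPM, against 101 to 108 CPM and 72.8 to 104 CPM. These levels are a description of 9 libraries, which share their depth and composition with Slc7a5.

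KO replicate 3 was the highest library for Myc and the lowest for Odc1, for which KO replicate 1 was low as well and KO replicate 2 stood apart as high. Ratios to KO replicates 1 and 2 are given against their mean of log2(CPM + 1). On that scale the level of Myc in KO replicate 3 was 1.82 times theirs, and 30.6% of the tested genes had a larger ratio. The level of Odc1 was 2.59 times lower than theirs, and 0.374% of the tested genes had a lower ratio. The library composition differed as well, with a TMM factor of 1.27, against 0.950 and 0.942 in KO replicates 1 and 2. KO replicate 3 also had the highest share of counts in sensory receptor genes, at 0.255%. It differed from the other batch 1 libraries in Xist and Ddx3y as well. The part of these differences in its Myc and Odc1 levels was not tested. The genes with profiles nearest to Myc were Bcl9 at 0.070, Zfp661 at 0.075, the ribosomal protein genes Rpl30 at 0.079 and Rps16 at 0.099, and Kdsr, an enzyme of sphingolipid synthesis, at 0.094, with a median of 0.350 over all genes. Rpl30 was at 339 CPM in KO replicate 3, against 218 to 279 CPM in the other batch 1 libraries and 200.3 to 250.4 CPM in batch 2. Rps16 was at 1012 CPM, against 673 to 809 CPM and 684 to 918 CPM. Without KO replicate 3, the batch 1 log2 fold change of Myc was -0.34 and that of Odc1 was -0.13. Without KO replicate 2, that of Odc1 was -1.59 in batch 1 and -1.25 over both batches, so the size of the Odc1 value rested on single KO libraries.

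The profile of Odc1 had no close neighbour of the kind that Slc7a5 and Myc had. The nearest gene, Rgs1, a regulator of G protein signalling, was at a distance of 0.326, and the next were Zfand2a at 0.328, Tnfaip3 at 0.359, Sik1 at 0.393 and Acp1 at 0.400. The median over all genes was 0.759. Distances are not scaled by how far a gene varied. The root mean square about the batch means was 0.747 for Odc1, against 0.457 for Slc7a5 and 0.260 for Myc. Tnfaip3, an inhibitor of NF-kappaB signalling, was at 276 CPM in WT replicate 3, against 100.5 to 112 CPM in the other batch 2 libraries. In batch 1 it was at 179 CPM in KO replicate 3, against 266 to 391.8 CPM in the other libraries. Zfand2a was at 91.0 CPM in WT replicate 3, against 28.8 to 42.7 CPM in the other batch 2 libraries, and at 41.0 CPM in KO replicate 3, against 85.4 to 121 CPM in the other batch 1 libraries. The mean level of 14 genes linked to cell dissociation and heat shock was high in WT replicate 3 and low in KO replicate 3 as well. Hspa1a, an inducible chaperone, was at 722 and 593 CPM in batch 2 KO libraries, against 2312 CPM in WT replicate 3 and 1488 CPM in WT replicate 4. In batch 1 it was at 294 CPM in KO replicate 3 and 1935 and 2499 CPM in KO replicates 1 and 2, against 749.5 and 1038.5 CPM in WT libraries. Beside these Hspa1a levels, Odc1 was at 39.0 CPM in KO replicate 1, 127 CPM in KO replicate 2 and 26.6 CPM in KO replicate 3. The part of a dissociation or heat shock response in the level of Odc1 was not tested.

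**Figure D3:**
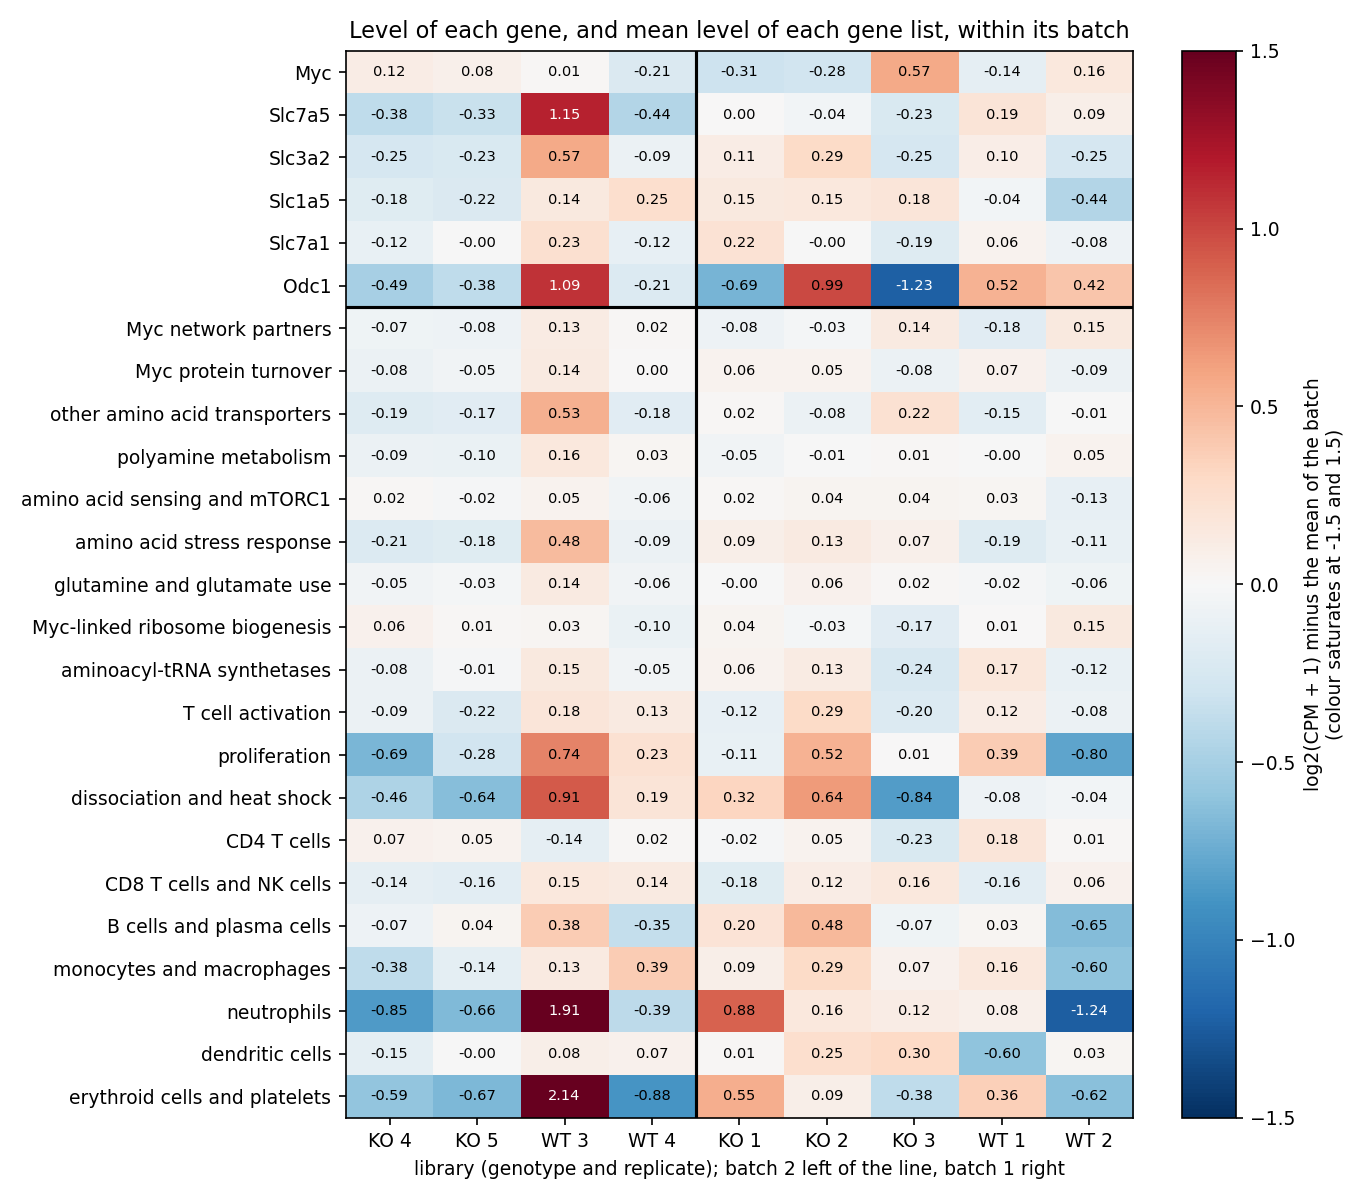
Log2(CPM + 1) of each of the 6 genes (upper rows) and mean log2(CPM + 1) of each gene list (lower rows), minus the mean of the batch, in the 9 libraries; red is above and blue below the batch mean, and colours saturate at 1.5. WT replicate 3 reads 1.15 for Slc7a5, 1.09 for Odc1 and 2.14 for erythroid cells and platelets, and KO replicate 3 reads 0.57 for Myc and -1.23 for Odc1.

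The 6 genes did not move as a block over the 9 libraries. The closest pair was Slc3a2 and Slc7a1, at a distance of 0.187, followed by Slc1a5 and Slc7a1 at 0.237. The distance is not scaled by how far a gene varied, so genes that varied little lie close together. The root mean square about the batch means was 0.140 for Slc7a1, 0.221 for Slc1a5 and 0.274 for Slc3a2. For Odc1 it was 0.747. The farthest pair was Myc and Odc1, at 0.896, and Myc was at 0.545 from Slc7a5. The chains of the leucine exchanger, Slc7a5 and Slc3a2, were at 0.288 from each other. Their ratio shows how the chains varied against each other, and the log2 ratio of Slc7a5 to Slc3a2 CPM averaged -0.57 ± 0.02 in batch 2 KO and -0.33 ± 0.68 in batch 2 WT (SD, n = 2 each). In batch 1 it averaged -1.22 ± 0.18 in KO (SD, n = 3) and -0.86 ± 0.18 in WT (SD, n = 2). WT replicate 3, at 0.15, was the only library above 0, and WT replicate 4 was at -0.81. All 3 batch 1 KO libraries were below both batch 1 WT libraries. The mean KO minus WT difference within batches was -0.30 (two-sided exact permutation test within batches, p = 0.233, over 60 assignments, with 0.0167 the smallest p they can give). It was -0.059 without WT replicate 3 (exact permutation p = 0.733) and -0.54 without WT replicate 4 (exact permutation p = 0.0333, the smallest possible there). CPM is not scaled by transcript length, so the ratio gives changes between libraries and not the numbers of transcripts of the chains.

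**Figure D4:**
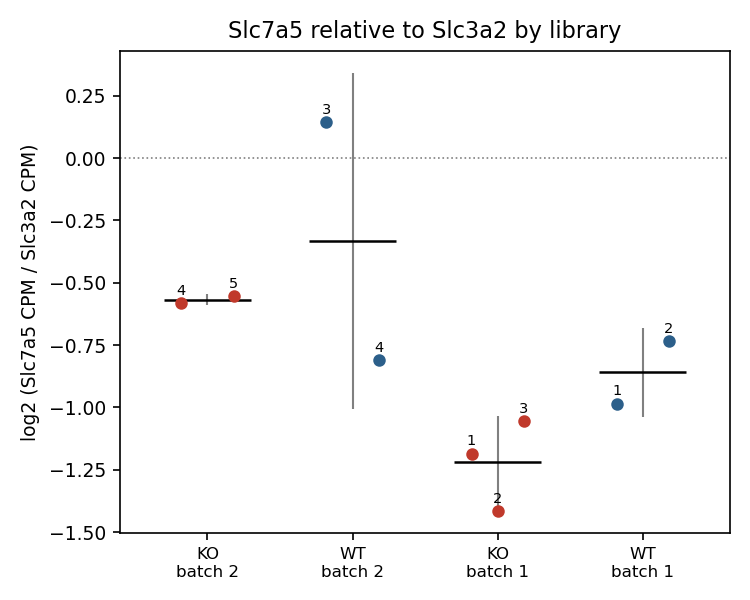
Log2 ratio of Slc7a5 to Slc3a2 in CPM for KO (red) and WT (blue) libraries of batch 2 and batch 1; points are libraries numbered by replicate, horizontal bars are means and vertical lines are 1 SD (n = 3 for KO in batch 1, n = 2 otherwise). WT replicate 3 lies at 0.15, above the dotted line at 0, and the other 8 libraries lie below it.

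Between batches, 3 of the 6 genes passed, all higher in batch 2: Slc7a5 rose by a log2 value of 1.02 ± 0.30 (SE, edgeR adjusted p = 0.0125), Slc1a5 by 0.76 ± 0.16 (edgeR adjusted p = 0.00156) and Slc7a1 by 0.54 ± 0.13 (edgeR adjusted p = 0.00456). Of 22197 genes tested, 64.1% passed (67.8% had an unadjusted p under 0.05), 16.8% higher and 47.3% lower, and the median over all genes was -0.76, so the 3 genes stood further above that median than above 0. With upper-quartile scaling, 1353 genes passed as higher and 11141 as lower in place of 3724 and 10497, the median was -0.97, and the same 3 genes passed beside 56.3% of all genes. Odc1 had a log2 value of 0.86 ± 0.48 (edgeR adjusted p = 0.151), Slc3a2 0.33 ± 0.20 (edgeR adjusted p = 0.171) and Myc -0.19 ± 0.17 (edgeR adjusted p = 0.343). Without WT replicate 1, 2 of the 6 passed (64.6% of all genes), and without KO replicate 2, 5 of the 6 passed (64.7%). The batch cannot be told apart from the library depth, the sensory receptor share or, except for KO replicate 3, the Xist and Ddx3y levels.

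The other amino acid transporters did not pass between genotypes. Counts of negative values in the gene lists stand against 52.2% of all genes in batch 2 and 46.2% in batch 1. Leaving out single libraries turned the sign of the median for 5 of 12 lists in batch 2 and 9 of 12 in batch 1. The low-count filter was rerun in each of these fits, so the tested genes of a list can differ between fits. For the lists of Myc network partners and of glutamine use, given below, the batch 2 sign turned in 4 of 4 fits. The direction of most batch 1 medians was thus not stable when libraries were left out. Of 21 transporters tested in batch 2, 14 had negative log2 fold changes and 0 passed with edgeR, 0 had an unadjusted p under 0.05 and 0 passed with DESeq2, with a median of -0.19. In batch 1, 11 of 20 were negative (median -0.01, and 0.15 without WT replicate 1). Slc38a2, a glutamine and alanine transporter induced by amino acid shortage, was at 144 and 133 CPM in batch 2 KO libraries, against 223 and 137 CPM in batch 2 WT libraries. It was at 185, 192 and 126 CPM in batch 1 KO libraries, against 219 and 191 CPM in batch 1 WT libraries. Over both batches its log2 fold change was -0.36 ± 0.18 (edgeR adjusted p = 1.00). Slc38a1, a related glutamine transporter, had 0.04 ± 0.12, the taurine transporter Slc6a6 had -0.09 ± 0.10 and Slc43a2, a carrier of large neutral amino acids, had 0.02 ± 0.13, all 3 with an adjusted p of 1.00 in edgeR.

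The genes of polyamine metabolism around Odc1 did not pass between genotypes with edgeR. In batch 2, 8 of 13 tested genes were negative (median -0.21), 2 had an unadjusted p under 0.05, 0 passed with edgeR and 1 with DESeq2, which was the oxidase Smox. In batch 1, 9 of 14 were negative (median -0.15), and 0 passed with edgeR or DESeq2. Azin1, which shields ornithine decarboxylase from its inhibitor, was at 81.5 and 86.6 CPM in batch 2 KO libraries, against 184 and 113 CPM in batch 2 WT libraries (log2 fold change -0.83 ± 0.27, edgeR adjusted p = 0.625). It was at 90.4, 84.4 and 84.8 CPM in batch 1 KO libraries, against 92.4 and 56.8 CPM in batch 1 WT libraries. Both batch 2 KO libraries were below both WT libraries, as for Odc1, and WT replicate 3 was again the highest. Oaz1, the antizyme that sends ornithine decarboxylase to degradation, had a log2 fold change of -0.37 ± 0.12 in batch 2 (edgeR adjusted p = 0.625) and -0.29 ± 0.36 in batch 1 (edgeR adjusted p = 1.00). Amd1, which supplies the aminopropyl donor, had -0.34 ± 0.16 in batch 2, and Eif5a, the factor that carries a polyamine-derived residue, had -0.21 ± 0.10.

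Genes of the amino acid stress response, which Atf4 switches on when amino acids run short, had their highest mean level in WT replicate 3. In batch 2, 14 of 18 tested genes were negative (median -0.46), and without WT replicate 3 the median was 0.01. With edgeR 0 passed, 2 had an unadjusted p under 0.05, and DESeq2 called 1, Cebpb. In batch 1, 9 of 18 were negative (median -0.004, and 0.20 without WT replicate 1), and 0 passed with edgeR or DESeq2. Atf4 was at 150.2 and 158 CPM in batch 2 KO libraries, against 292 and 175 CPM in batch 2 WT libraries, with a log2 fold change of -0.61 ± 0.28. Asparagine synthetase, Asns, a target of Atf4 chosen here after its values were seen, was at 3.55 and 2.73 CPM in batch 2 KO libraries, against 39.0 and 4.67 CPM in batch 2 WT libraries. Batch 1 levels of Asns were 14.6, 19.7 and 3.16 CPM in KO libraries, against 3.19 and 0.812 CPM in WT libraries. DESeq2 placed Asns past the threshold for the difference between batches, and edgeR did not (adjusted p = 0.526). Shmt2, a serine-using enzyme of mitochondria, had -0.38 ± 0.29 in batch 2, and Aldh18a1, an enzyme of proline synthesis, had 0.01 ± 0.13. Ddit4, an inhibitor of mTORC1, had 0.22 ± 0.10.

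Genes of ribosome biogenesis linked to Myc had medians of opposite sign in the batches, and the batch 2 sign rested on WT replicate 4. In batch 2, 21 of 28 were positive, with a median of 0.09, and in batch 1, 24 of 28 were negative, with a median of -0.28. The batch 2 median was -0.040 without WT replicate 4, and the batch 1 median was -0.11 without KO replicate 3. With edgeR and with DESeq2, 0 passed in either batch, and 0 and 1 had an unadjusted p under 0.05. Nucleolin, Ncl, was at 776 and 679 CPM in batch 2 KO libraries, against 694 and 655 CPM in batch 2 WT libraries. Ncl was at 680.3, 683 and 545 CPM in batch 1 KO libraries, against 785 and 1226 CPM in WT libraries, and its batch 1 log2 fold change was -0.75 ± 0.36 (edgeR adjusted p = 1.00). The nucleolar chaperone Npm1 had 0.13 ± 0.17 in batch 2 and -0.50 ± 0.37 in batch 1. The helicase Ddx21 had 0.16 ± 0.10 in batch 2 and -0.35 ± 0.37 in batch 1, and Tcof1, which promotes ribosomal RNA transcription, had 0.19 ± 0.09 and -0.30 ± 0.37. For the difference between batches, 22 of 28 were positive, where 61.9% of all genes were negative, 2 had an unadjusted p under 0.05 and 0 passed with edgeR or DESeq2.

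Partners and regulators of Myc did not pass between genotypes. In batch 2, 6 of 11 tested genes of the Myc and Max network were negative (median -0.12) and in batch 1, 10 of 12 (median -0.11). The batch 2 median was positive, at 0.019 to 0.19, whichever library was left out. The low-count filter was rerun in each of these fits, so the genes behind the medians can differ from those of the full fit. Max had 0.20 ± 0.12 in batch 2 and -0.09 ± 0.36 in batch 1. Mlxip, Mga and Mnt of the same network had 0.31 ± 0.09, 0.18 ± 0.11 and 0.18 ± 0.10 in batch 2. Of 11 genes that govern the stability or activity of Myc protein, 6 were negative in batch 2 (median -0.11) and 9 in batch 1 (median -0.13, and 0.077 without WT replicate 1). Pim1, a kinase that stabilises Myc, was at 189 and 215 CPM in batch 2 KO libraries, against 346 and 253 CPM in batch 2 WT libraries (log2 fold change -0.57 ± 0.20, edgeR adjusted p = 0.625). The ubiquitin ligase Huwe1 had 0.17 ± 0.09, the cofactor Trrap 0.03 ± 0.10 and the kinase Gsk3b 0.14 ± 0.11. Over both lists 0 genes passed with edgeR, 2 and 3 had an unadjusted p under 0.05 in batch 2, and DESeq2 called 0 in the first list and 1 in the second, Cip2a, an inhibitor of a phosphatase that acts on Myc.

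Amino acid sensing, glutamine use and transfer RNA charging did not pass between genotypes either. Of 29 genes of amino acid sensing and mTORC1, 19 were positive in batch 2 (median 0.04) and 17 negative in batch 1 (median -0.02, and 0.23 without WT replicate 1), and DESeq2 called 1 in batch 2, Sesn3. Sesn1, whose family restrains mTORC1, had 0.44 ± 0.17 in batch 2 (edgeR adjusted p = 0.633) and -0.26 ± 0.36 in batch 1. The translation repressor Eif4ebp2 had 0.16 ± 0.11 in batch 2, Rptor, a subunit of mTORC1, had -0.04 ± 0.12 and the S6 kinase Rps6kb1 had 0.11 ± 0.12. Of 15 genes of glutamine and glutamate use tested in batch 2, 7 were negative (median 0.01, and -0.067 to -0.024 with each library left out), with 0.13 ± 0.13 for the glutamate dehydrogenase Glud1. In batch 1, 11 of 16 were negative (median -0.10, and 0.14 without WT replicate 1). Of 20 aminoacyl-tRNA synthetases, 13 were negative in batch 2 (median -0.09) and 16 in batch 1 (median -0.26), with -0.16 ± 0.16 for Vars and -0.12 ± 0.15 for Sars in batch 2. Their median was 0.077 in batch 2 without WT replicate 3, and in batch 1 it was 0.18 without WT replicate 1 and -0.51 without WT replicate 2. With edgeR 0 genes of these 3 lists passed, and in batch 2 4, 0 and 1 had an unadjusted p under 0.05.

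Activation and division genes are given as the setting in which the 6 genes were read. All 16 proliferation genes had negative log2 fold changes in batch 2 (median -1.14, and -0.74 without WT replicate 3), 14 of them with an unadjusted p under 0.05, and 0 passed with edgeR against 8 with DESeq2. In batch 1, 7 of 16 were negative (median 0.07), and the median was 1.13 without WT replicate 1 and -0.50 without WT replicate 2. All 14 dissociation and heat shock genes were negative in batch 2 (median -1.11, and -0.77 without WT replicate 3), 11 with an unadjusted p under 0.05, and 0 passed with edgeR against 9 with DESeq2. Of 14 T cell activation genes tested in batch 2, 8 were negative (median -0.21), 2 had an unadjusted p under 0.05, and 0 passed with edgeR against 1 with DESeq2, Nr4a1. In batch 1, 9 of 13 activation genes were negative (median -0.05) and 7 of 14 dissociation and heat shock genes were (median 0.01), medians whose sign turned without single libraries, and 0 of either list passed with edgeR or DESeq2. An unadjusted p under 0.05 was found in batch 1 for 1 activation gene and 0 dissociation and heat shock genes. Nr4a1, induced early by the T cell receptor, was at 109 and 90.4 CPM in batch 2 KO libraries, against 387 and 178 CPM in batch 2 WT libraries. It was at 279, 361 and 204 CPM in batch 1 KO libraries, against 455 and 418 CPM in batch 1 WT libraries, so every KO library was below every WT library within its batch. Of all tested genes, 20.5% were so ordered in batch 2 and 5.19% in batch 1. The share so ordered in both batches was not counted. Il2ra, a receptor chain that rises with activation, had 0.04 ± 0.18 in batch 2 and -0.36 ± 0.38 in batch 1. The part of proliferation, activation or dissociation in the levels of the 6 genes was not tested.

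Markers of other cell types are given by their summed level in each library. Neutrophil markers summed to 5.73 and 8.20 CPM in batch 2 KO and 166 and 18.04 CPM in batch 2 WT, and to 588 to 980 CPM in batch 1 KO and 271 and 699 CPM in batch 1 WT. B cell and plasma cell markers summed to 22.9 and 25.9 CPM in batch 2 KO and 59.5 and 19.4 CPM in batch 2 WT, against 82.0 to 232 CPM in batch 1. Monocyte and macrophage markers summed to 156 and 215 CPM in batch 2 KO and 229 and 372 CPM in batch 2 WT, against 140.3 to 361 CPM in batch 1. Dendritic cell markers summed to 6.84 and 9.81 CPM in batch 2 KO and 10.2 and 13.6 CPM in batch 2 WT, against 26.8 to 64.3 CPM in batch 1. Markers of CD8 T cells and NK cells summed to 29.2 to 35.3 CPM in batch 2 and 32.2 to 47.7 CPM in batch 1, while the 9 CD4 T cell markers summed to 4375 to 5038 CPM in batch 2 and 3418 to 4191 CPM in batch 1. None of these 7 marker lists had a gene past the edgeR threshold between genotypes in either batch, and 0 to 3 genes a list had an unadjusted p under 0.05. DESeq2 called 1 gene of the CD8 T cell and NK cell list in batch 2, Gzma, and limma-voom called 2 neutrophil genes in batch 1. Their part in the levels of the 6 genes was not tested.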

How the data were processed

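RNA was measured in 9 samples of CD4+ T cells, 5 labelled KO and 4 labelled WT, each with a batch number in the labels. The authors deposited 1 table of estimated counts per gene, with Entrez identifiers and symbols per the file headers. The submitters' processing notes name Salmon 1.2.0 and R 4.0.3, and GRCm39 as genome build, with no role for any of them. What annotation release, strand setting and step from transcripts to genes were used is not given in the sources used here. Of the nonzero estimates, 0% were whole, so a scaling by transcript length is possible, and they were rounded to whole counts for the tests. Reads of near-identical or overlapping genes are shared out by estimation in such values. Totals ran from 4926347 to 69844721 and the lowest count of any of the 6 genes was 135, for Odc1 in KO replicate 3. That total is the base of CPM in the text.

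The test was edgeR's robust quasi-likelihood fit (version 4.0.16, under R 4.3.3) after TMM scaling, with the default filter (minimum count 10, minimum total 15), Benjamini-Hochberg adjustment over all tested genes and a threshold of 0.05. Genotype was tested within each batch on that batch alone, over both batches with batch as a term, and in interaction with batch, and the batch term was tested too. DESeq2 1.42.0 and limma 3.58.1 (voom) were run as alternatives, as were upper-quartile scaling, no filter, no batch term, a replicate block, 1 fit of all 9 samples, and leaving out each sample. The edgeR fit was tested on simulated data with known changes. Those data gave all genes the same spread and held no outlying library, so they do not show how the fit performs here. Whether the replicate numbers pair the samples could not be decided, and the main tests used no pairing. Replicate libraries differed by more than sampling noise (chi-square per degree of freedom at least 4.80). The log2 ratio of Slc7a5 to Slc3a2 was tested by exact permutation of genotype within batches.

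The 6 genes and all gene lists were chosen with earlier results of these data known. Named genes were the 6 genes, Esr1, the 4 genes of each list with the highest mean CPM, any list gene past the edgeR threshold between genotypes, and the 5 nearest profiles of Myc, Slc7a5 and Odc1 among tested genes with a mean of at least 10 CPM. Mki67, Tfrc, S100a8 and the cell type markers were given as levels. Some genes that this rule covers are not reported here. Asns, Xist, Ddx3y and list genes named for a DESeq2 call were chosen after their values were seen. The single gene past the edgeR threshold over both batches was Adgrg4, and for the interaction it was Zfp965, and neither is one of the 6 genes. Promoter sequences are from RefSeq on GRCm38.p6, a build other than that of the counts, and were not joined to the counts by position.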

Additional observations from a re-analysis of the deposited data

Results flagged for a closer look

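Several values stood apart from the rest of their group over all libraries of a genotype. Of 52 such groups of values examined, 5 held a lone library. A chance rate of 1 in 20 would give 2.6, but it takes the libraries of a group as alike and the groups as independent. Here each group pools the batches, and WT replicate 3 recurs among the 5 cases. The 2.6 is thus not a valid chance number to set against 5, and no conclusion is drawn from it. Myc was at 264 CPM in KO replicate 3, against 143 to 147 CPM in the other KO libraries. Slc7a5 was at 179 CPM in WT replicate 3, against 50.5 to 58.4 CPM in the other WT libraries. Odc1 was at 244 CPM in WT replicate 3, against 85.5 to 98.9 CPM in the other WT libraries. The mean log2(CPM + 1) of the amino acid stress response genes was 4.67 in WT replicate 3, against 4.08 to 4.16 in the other WT libraries. That of the dissociation and heat shock genes was 8.63 in WT replicate 3, against 7.90 to 8.01. WT replicate 3 was thus the lone library in 4 of the 5 cases, beside its erythroid, Tfrc and Mki67 levels, whose part in them was not tested.

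Other values had opposite directions in the batches, with every KO library on 1 side of every WT library in each. Within batch 2, 20.5% of all tested genes had every KO library below and 19.6% above every WT library. Within batch 1 the shares were 5.19% below and 10.9% above. The share of genes on opposite sides in the batches was not counted, nor was any share for list means. For Slc1a5 the KO minus WT difference was -46.3 CPM in batch 2 and 30.9 CPM in batch 1, and the difference between these was -77.2 CPM. The edgeR test of that difference gave an adjusted p of 0.494. For the mean log2(CPM + 1) of the amino acid stress response genes the KO minus WT difference was -0.39 in batch 2 and 0.25 in batch 1, a difference between batches of -0.63. The edgeR fold changes of these genes had a median of -0.004 in batch 1, with 9 of 18 negative, and a batch 2 median of 0.01 without WT replicate 3. For the neutrophil markers it was -1.51 in batch 2 and 0.96 in batch 1, a difference between batches of -2.48. The difference between batches was not tested for these list means.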

How the results depend on the processing

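Of 372 alternative values for the log2 fold changes of the 6 genes, 328 kept their direction and side of the threshold, 36 changed sign, 7 passed where the value in the report did not, and 1 no longer passed. Counts of genes past the threshold were 1 over both batches in the report, 16 with DESeq2, 2 without a filter, 0 with limma-voom and 0 without the batch term. In batch 1 they were 31 in the report, 6 with upper-quartile scaling, 68 without a filter and 3 in 1 fit of all 9 samples. In batch 2 they were 0 in the report, 329 with DESeq2 and 34 without a filter. For the interaction they were 1 in the report, 165 with DESeq2, 2 without a filter and 0 with limma-voom, and for batch 2 versus batch 1 they were 14221 in the report and 25837 without a filter. DESeq2 called 1 of the 6 genes in batch 2 and 1 for the interaction, where edgeR called 0.

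Without a filter Myc turned to -0.051 over both batches and 0.15 for the batch term. Slc1a5 turned to 0.019 over both batches with upper-quartile scaling. In batch 1, Slc3a2 turned to 0.070 with upper-quartile scaling and 0.10 in 1 fit of all samples, and Esr1 to 0.015 with limma-voom. Same-numbered samples correlated at 0.364, -0.395, -0.17 and -0.182, after centring within each genotype and batch. In groups of 2 libraries, centring makes the deviations mirror images. Number 3 sets a batch 1 KO library against a batch 2 WT library. These values thus cannot decide whether the numbers pair the samples. With a replicate block there was 1 gene past the threshold over both batches and there were 58 in batch 1. The replicate block turned Myc to -0.091, Slc3a2 to 0.13, Slc1a5 to 0.11 and Slc7a1 to 0.082 over both batches, and Slc3a2 to 0.27 and Slc7a1 to 0.11 in batch 1. No block was possible in batch 2, whose groups share only number 4.

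Leaving out each library gave counts of 0 to 3 over both batches, 33 to 118 in batch 1, 0 to 879 in batch 2, 1 to 238 for the interaction and 11456 to 18656 for the batch term. Of the 6 genes, 0 to 3 passed in batch 2 and 2 to 5 for the batch term. Log2 fold changes that changed sign then ran over both batches from -0.088 to 0.16 for Myc, -0.46 to 0.059 for Slc3a2, -0.30 to 0.091 for Slc1a5 and -0.24 to 0.066 for Slc7a1, lowest for Slc3a2, Slc1a5 and Slc7a1 without WT replicate 2. Leaving out WT replicate 3 and KO replicate 3 together gave -0.090 for Slc7a5 and -0.18 for Odc1, in place of -0.59 and -0.74, and -0.088 for Myc, 0.059 for Slc3a2 and 0.066 for Slc7a1. In batch 1 they ran from -0.33 to 0.38 for Slc3a2, -0.13 to 0.63 for Slc1a5, -0.35 to 0.15 for Slc7a1 and -0.78 to 0.59 for Esr1. In batch 2 they ran from -1.56 to 0.13 for Slc7a5 and -0.33 to 0.10 for Slc7a1. For the interaction they ran from -1.29 to 0.46 for Slc7a5, -0.34 to 0.20 for Slc7a1 and -1.09 to 0.45 for Odc1, and for the batch term from -0.23 to 0.11 for Myc. Of 637 medians of the 6 genes or a gene list under alternatives, 105 moved by more than the spread between libraries. The log2 ratio difference ran from -0.54 to -0.059. In batch 1 the median over all genes was 0.04 with TMM and 0.11 with upper-quartile scaling. The cause of these changes was not tested. With 2 or 3 libraries per genotype and batch, the number of libraries limits these comparisons.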
